A study of Mus musculus with 6 samples.

Results

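The genes described here mark the making of new neurons in the hippocampus, from stem cells to immature granule neurons. They are Sox2, Hopx, Eomes, Neurod1, Sox11, Sox4, Dcx, Igfbpl1 and Draxin, 9 genes named for their known roles and looked up by symbol in a table of 22050 genes. Of the 9, 8 had a row and 7 passed the filter on low counts. Sox4, the close relative of Sox11, matched no row and was not analysed here, and Eomes fell below the filter. The libraries are messenger RNA sequencing of hippocampus from young mice, 3 labelled control (control 1 to 3) and 3 from animals injected repeatedly with lidocaine (lidocaine 1 to 3). Lidocaine, a local anaesthetic, acts by blocking sodium channels of neurons, and the comparison asks whether hippocampal gene expression differs after repeated exposure. The design text also names old mice, which were not analysed here. Strain, sex, age in weeks, dose, route and the interval between injection and dissection were not given in the sources used here. Nor do the labels tie each library to its own animal, and the p-values therefore reflect the spread among these libraries, which may be technical.

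Adult mice keep producing granule neurons in the subgranular zone of the dentate gyrus, one of the few sites of neurogenesis in the adult mammalian brain. Radial glia-like stem cells, which carry Sox2 and Hopx, give rise to dividing intermediate progenitors that switch on Eomes (also called Tbr2) and then Neurod1. The resulting neuroblasts and immature neurons carry Dcx, Sox11, Sox4 and Igfbpl1 until they mature. These cells are a small minority in whole hippocampus, and several of the genes are also used by other cells: Sox2 and Hopx by astrocytes, Sox2 by oligodendrocyte precursors and Neurod1 by mature granule neurons. In bulk tissue, fewer cells of a type and less RNA per cell cannot be told apart.

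Totals ran from 13887604 to 16984995 estimated counts per library. All 22050 rows carry rat Ensembl identifiers although the labels name the mouse, so the species of the gene models behind the values could not be settled, and if mouse reads were placed on rat genes, poorly conserved genes could be undercounted. The tissue label was checked on 12 hippocampal markers, of which 11 had a row and 10 were tested. Their summed level was 1450.6 to 1563.4 CPM (counts scaled to library size) in the controls and 1220.3 to 1766.2 CPM with lidocaine. The CA1 gene Wfs1, the CA1 gene Fibcd1, the dentate genes C1ql2 and Calb1 and the pyramidal cell gene Neurod6 were present in all 6 libraries. Wfs1 stood at 345.1 CPM in lidocaine 2 and at 676.9 to 841.7 CPM in the other 5. Lidocaine 2 had the lowest sum, but Wfs1 is part of that sum. Fibcd1 stood at 374.7 CPM in lidocaine 2 and at 298.7 to 370.7 CPM in the other 5. The defining markers Prox1 and Spink8 were close to absent. Control 1 to 3 had 0, 20.96 and 21.69 counts of Prox1, the transcription factor that defines dentate granule cells, and lidocaine 1 to 3 had 0, 0 and 22.24, while the CA1 marker Spink8 had 0 to 5. Prox1 has fractional counts, so a listed 0 can be a failed estimate.

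By symbol, the mouse genes lie in the GRCm38 build (GENCODE M21) at chr3:34650405-34652461 on the plus strand for Sox2 and at chr5:77086988-77115121 on the minus strand for Hopx. Eomes lies at chr9:118478212-118486132 (plus), Neurod1 at chr2:79452521-79456751 (minus), Sox11 at chr12:27334264-27342574 (minus) and Dcx at chrX:143855842-143933311 (minus). Igfbpl1 lies at chr4:45809468-45826923 and Draxin at chr4:148098437-148130698, both on the minus strand. Sox2 lies within the noncoding gene Sox2ot on its own strand, and the annotated span of Cerkl on the same strand covers Neurod1. On the opposite strand Hopx overlaps Hopxos, Draxin overlaps Mad2l2, Eomes overlaps Gm33460 and Neurod1 overlaps Gm26755. Whether counting used strand is not given in the sources used here. Overlap was judged from mouse gene spans alone, not exons, so whether reads were shared between these genes was not tested. Sox2, Hopx and Dcx have fractional counts, as can arise where reads are shared between genes, and the other 5 rows hold whole counts.

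None of the genes was called different between lidocaine and control hippocampus, in either direction. Over all genes, edgeR's quasi-likelihood test with Benjamini-Hochberg adjustment called 2 of 13408 tested genes, or 0.0149%, both lower with lidocaine and neither in the lists used here (Rbm39 and Ndst2). Without control 3 or lidocaine 2 this count was 0, without control 1 it was 1 and without lidocaine 1 it was 6. Of the 7 genes tested here, edgeR called 0, and 0 had an unadjusted p under 0.05, a threshold that 4.36% of all tested genes passed. DESeq2, which called 0.131% of all genes with an adjusted p, limma-voom and limma on FPKM also called 0 of them, with 0 at an unadjusted p under 0.05. The 7 log2 fold changes lay between -0.22 for Draxin and 0.19 for Dcx, with 3 positive and 4 negative and a median of -0.10, beside a median of 0.00 over all tested genes. Control and lidocaine values overlapped in each of the 7. The groups were apart in 9.98% of all tested genes, so with only 7 genes this is no contrast to the rest. With 3 libraries against 3, an exact permutation test cannot give p under 0.1, and the 7 gave two-sided p from 0.2 for Draxin to 0.8 for Igfbpl1.

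**Figure D1:**
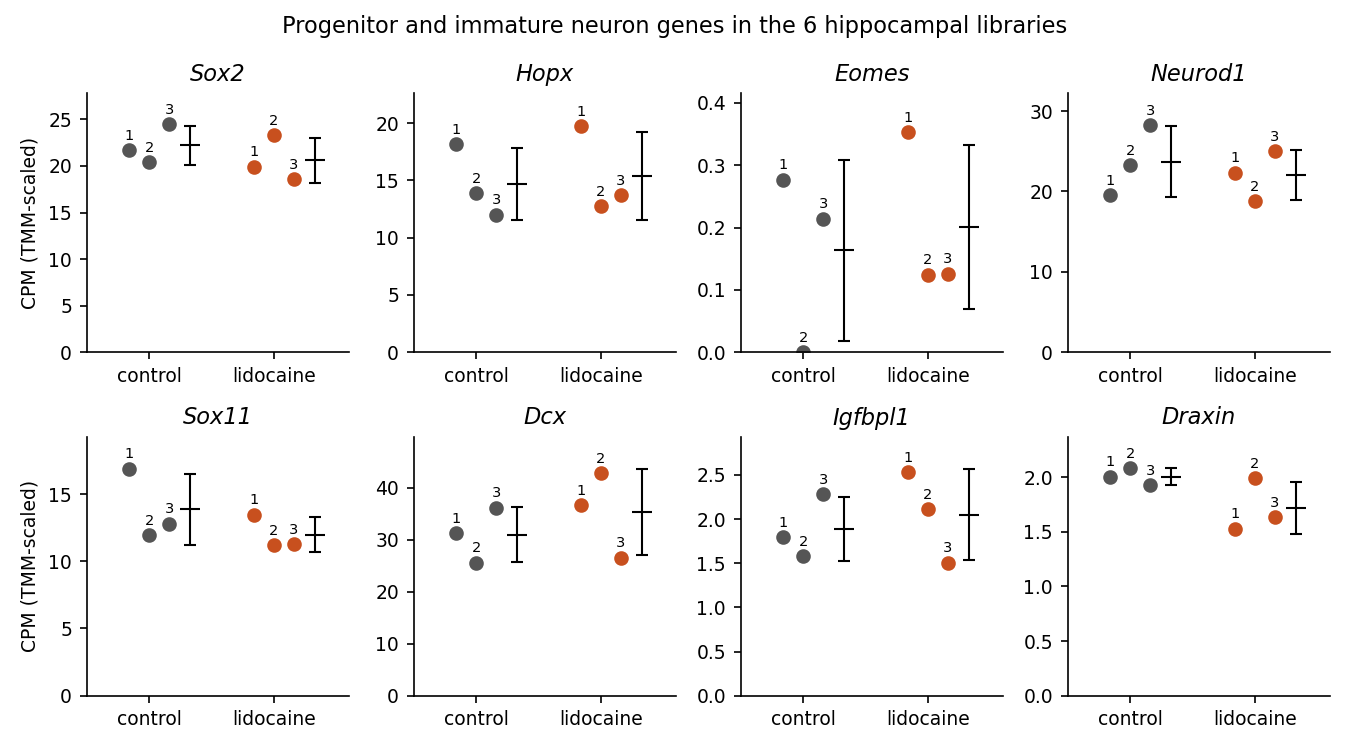
Level of each gene in CPM, on an axis from 0, in the 3 control (grey) and 3 lidocaine (orange) libraries; numbers give the library, and the bar beside the points is the mean ± SD (n = 3). Points of the groups overlap for every gene, and Eomes lies under 0.4 CPM in all 6 libraries.

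Among the stem cell genes, Sox2, the transcription factor that keeps neural stem cells undifferentiated, was listed at 313.94, 323.08 and 343.23 estimated counts in control 1 to 3 and at 338.96, 374.61 and 295.81 in lidocaine 1 to 3. Scaled to library size, this was 21.7, 20.4 and 24.5 CPM in the controls and 19.9, 23.3 and 18.6 CPM with lidocaine. Lidocaine 3 was the lowest and control 3 the highest, with lidocaine 2 inside the control range. The means were 22.2 ± 2.09 and 20.6 ± 2.42 CPM (SD, n = 3 each), which differed by -0.11 ± 0.12 (SE) on the log2 scale, with a 95% interval from -0.39 (-0.395) to 0.18 (edgeR, Benjamini-Hochberg-adjusted p = 0.995). The interval spans folds from 0.76 to 1.14 (1.135), the narrowest of the 7 genes.

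Hopx, a small homeodomain protein that lacks DNA binding and marks quiescent stem cells, stood at 18.2, 13.9 and 11.99 CPM in control 1 to 3 and at 19.8, 12.7 and 13.7 CPM in lidocaine 1 to 3. In each group library 1 was the highest, and the other 4 values lay between 11.99 and 13.9 CPM. The group means of 14.7 ± 3.17 and 15.4 ± 3.81 CPM (SD, n = 3 each) differed by 0.07 ± 0.22 on the log2 scale (edgeR, Benjamini-Hochberg-adjusted p = 0.997; 95% interval -0.44 to 0.57 (0.575)). Its sign turned without lidocaine 1, to -0.15, and without control 3, to -0.056. Because Sox2 and Hopx are shared with astrocytes, the 10 astrocyte markers were set beside them: 0 were called, 6 fold changes were positive and 4 negative, and their median was 0.03 on the log2 scale. Their summed level was 7636.1 to 8738.3 CPM in the controls and 7805.1 to 7940.6 CPM with lidocaine. At an unadjusted p under 0.05, 1 of these markers, S100b, was lower. The part of astrocytes in the Sox2 and Hopx values was not tested.

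Eomes, the T-box factor of intermediate progenitors, was barely detected. It was counted 4, 0 and 3 times in control 1 to 3 and 6, 2 and 2 times in lidocaine 1 to 3. Summed over each group this was 7 and 10 counts, a ratio per total count of 1.29 (lidocaine over control) with an exact 95% interval from 0.444 to 4.0 that covers counting error only. The count of 0 in control 2 allows up to 0.188 CPM, at a floor of 3 counts. The interval of the ratio leaves out the spread between libraries, so a change in Eomes could not be judged at this depth.

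Neurod1, a basic helix-loop-helix factor that drives progenitors into the granule neuron fate, had 282, 369 and 396 counts in control 1 to 3 and 380, 303 and 398 in lidocaine 1 to 3. The levels were 19.5, 23.3 and 28.3 CPM in control 1 to 3 and 22.3, 18.8 and 25 CPM in lidocaine 1 to 3, so that library 3 was the highest in each group and the lowest value was lidocaine 2. The means of 23.7 ± 4.40 and 22.1 ± 3.10 CPM (SD, n = 3 each) differed by -0.10 ± 0.16 on the log2 scale (edgeR, Benjamini-Hochberg-adjusted p = 0.996; 95% interval -0.48 to 0.28). Without control 3 the sign turned, to 0.045, and without lidocaine 2 it was 0.001. Mature granule neurons also express Neurod1, and the 8 tested dentate granule cell markers had a median log2 fold change of -0.11, with 3 positive, 5 negative and 0 called. Their summed level was 382.2 to 471.6 CPM in the controls and 383.3 to 436.8 CPM with lidocaine, and their part in the Neurod1 values was not tested.

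Sox11, a SoxC factor that switches on neuronal genes in newborn neurons, had 244, 189 and 179 counts in control 1 to 3 and 229, 180 and 179 in lidocaine 1 to 3. Scaled, this was 16.9, 11.9 and 12.8 CPM in control 1 to 3 and 13.5, 11.2 and 11.2 CPM in lidocaine 1 to 3. Control 1 stood above the other 5 libraries, which spanned 11.2 to 13.5 CPM, and library 1 was the highest in both groups. The log2 fold change was -0.21 ± 0.17 (edgeR, Benjamini-Hochberg-adjusted p = 0.995; 95% interval -0.60 to 0.18), and without control 1 it was -0.05 (-0.045). Sox12, the third SoxC gene and the one with a row beside Sox11, had a log2 fold change of -0.21 (-0.215) ± 0.17 in the same fit.

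Dcx encodes doublecortin, the microtubule-binding protein of migrating neuroblasts and the gene used most widely to mark adult-born neurons. It was listed at 451.97, 406.20 and 506.53 estimated counts in control 1 to 3 and at 622.69, 689.67 and 423.06 in lidocaine 1 to 3. The corresponding levels were 31.2, 25.6 and 36.2 CPM in the controls and 36.6, 42.9 and 26.6 CPM with lidocaine. Lidocaine 1 and 2 were above all 3 controls, by little in the case of lidocaine 1, while lidocaine 3 lay near the lowest control. The means were 31.0 ± 5.29 and 35.4 ± 8.22 CPM (SD, n = 3 each), which differed by 0.19 ± 0.20 on the log2 scale (SE; edgeR, Benjamini-Hochberg-adjusted p = 0.995). The 95% interval, from -0.27 to 0.65, spans folds from 0.827 to 1.57. The estimate was 0.03 without lidocaine 2 and 0.36 without lidocaine 3, and neither was called.

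Igfbpl1, a secreted relative of the insulin-like growth factor binding proteins found in immature neurons, had 26, 25 and 32 counts in control 1 to 3 and 43, 34 and 24 in lidocaine 1 to 3. In CPM, lidocaine 1 was the highest at 2.53 and lidocaine 3 the lowest at 1.51, with the controls between 1.58 and 2.28 (2.285). The log2 fold change was 0.12 ± 0.31 (edgeR, Benjamini-Hochberg-adjusted p = 0.996; 95% interval -0.59 to 0.83) and turned to -0.05 without lidocaine 1. Draxin, a secreted axon guidance protein that binds the netrin receptor DCC, had 29, 33 and 27 counts in control 1 to 3 and 26, 32 and 26 in lidocaine 1 to 3. The levels were 2.005, 2.08 and 1.93 CPM in control 1 to 3 and 1.53, 1.99 and 1.63 CPM in lidocaine 1 to 3. Lidocaine 1 and 3 lay below all controls and lidocaine 2 among them. The log2 fold change of -0.22 ± 0.26 was the lowest of the 7 (edgeR, Benjamini-Hochberg-adjusted p = 0.995; 95% interval -0.82 (-0.825) to 0.38).

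**Figure D2:**
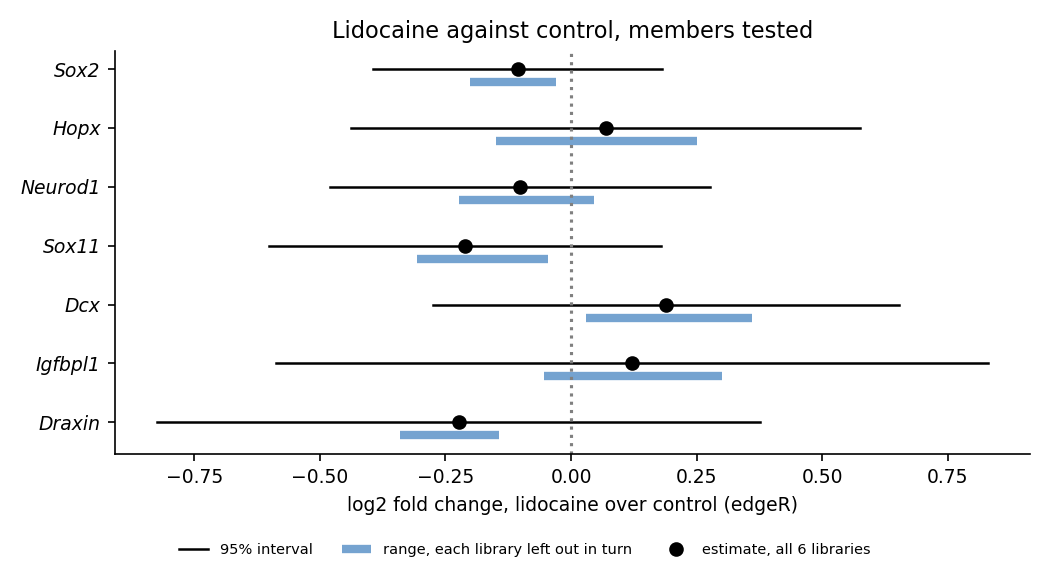
Log2 fold change of lidocaine over control for the 7 tested genes from edgeR (points), with 95% intervals (black lines) and the range over fits that each leave out 1 library (blue bars). Every interval includes 0, from the narrowest for Sox2 to the widest for Igfbpl1, and the blue bars of Hopx, Neurod1 and Igfbpl1 cross 0.

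The spread between libraries of 1 group differed from gene to gene. The coefficient of variation (SD over mean) of Dcx was 17.04% in the controls and 23.2% with lidocaine, where counting error alone would give 4.69% and 4.16%. Hopx varied by 21.6% and 24.7% in the same order, and Neurod1 by 18.6% and 14.1%, against counting errors of 5.27% to 6.79% for both genes. Sox2 was steadier, at 9.42% and 11.7%. For Igfbpl1 (19.2% and 25.1%) counting error of 19.0% and 17.2% was of similar size, and Draxin at 3.88% and 14% varied less than its counting error of 18.4% and 18.9%. No library was the highest or the lowest for all 7 genes: lidocaine 1 and control 3 each held the highest value of 2 of the 7 genes, control 1, control 2 and lidocaine 2 of 1 each, and lidocaine 3 of 0. Lidocaine 2 and lidocaine 3 each held the lowest value of 2. Lidocaine 3 lay below the control mean in 6 of 7 genes, all but Neurod1, with a median of -0.25 on the log2 scale, and control 2 also in 6 of 7, with a median of -0.12.

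Levels between genes were compared per transcript length, in the deposited FPKM (fragments scaled for transcript length and library size). Averaged over all 6 libraries, Hopx had 8.58 ± 1.85 FPKM, Neurod1 6.60 ± 0.981, Sox2 5.45 ± 0.571, Sox11 3.802 ± 0.622 and Dcx 2.23 ± 0.46 FPKM (SD, n = 6). Draxin followed at 1.07 ± 0.127 FPKM, Igfbpl1 at 0.88 ± 0.187 and Eomes at 0.053 ± 0.035. Ranges overlapped between Hopx and Neurod1, Neurod1 and Sox2, and Draxin and Igfbpl1, and the order of each of these pairs held in 5 of 6 libraries, so it is not beyond the spread. Sox2 lay above Sox11 in all 6 libraries, although their ranges overlapped. In all 6 libraries Sox11 lay above Dcx, Dcx above Draxin and Igfbpl1 above Eomes, with ranges apart. Hopx stood at the 61.3rd percentile of the mean FPKM of all tested genes, Dcx at the 30.3rd and Igfbpl1 at the 15.5th. Dcx had the most counts of the set but only the fifth highest FPKM. The ratio of its counts to its FPKM, with the column sums as library totals, implies a length of 14876 bases, beside 9074 bases for the longest mouse transcript in GENCODE M21. For Sox11 the implied 3389 bases are fewer than the 8311 of the mouse transcript. Implied and mouse lengths were 1739 and 5200 bases for Draxin, 3919 and 2057 for Sox2 and 1752 and 1261 for Hopx. They were 3456 and 2729 bases for Neurod1 and 2234 and 2864 for Igfbpl1. The FPKM levels and their order, that of Dcx and Sox11 included, therefore depend on the gene models used.

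**Figure D3:**
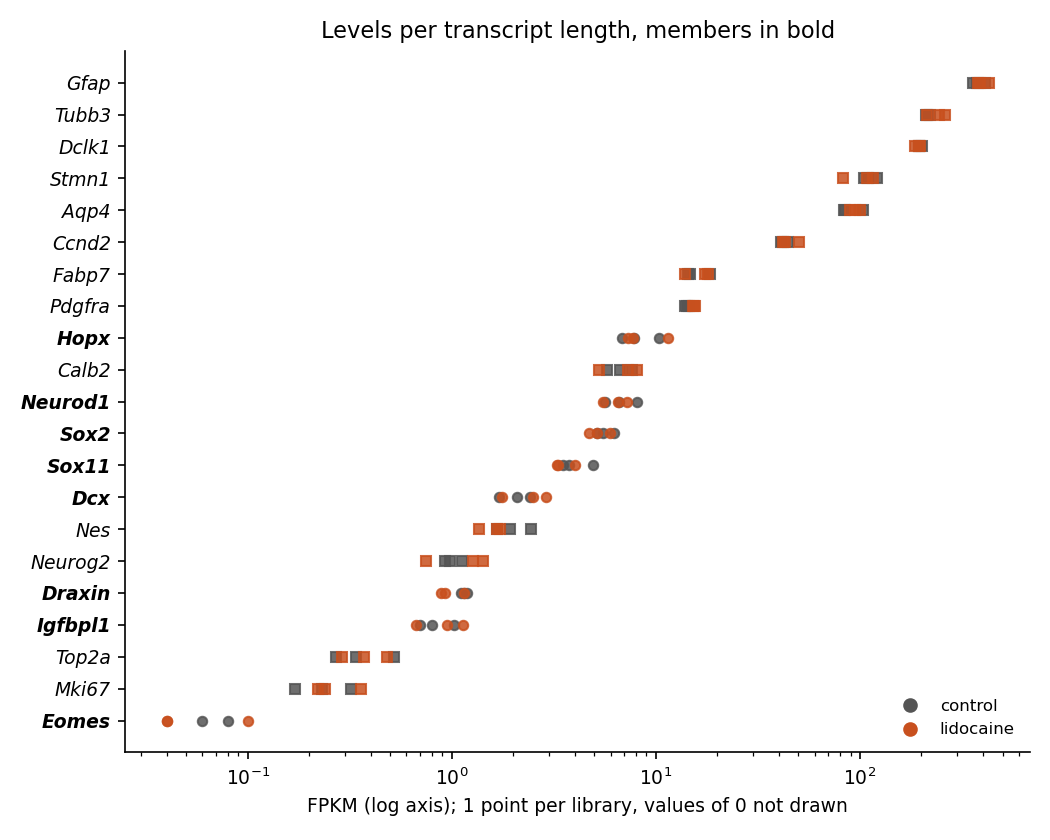
Levels in FPKM on a log axis, 1 point per library (grey control, orange lidocaine), for the 8 measured genes in bold and 13 other genes of the lists. The 8 genes span Eomes at 0.1 FPKM or less to Hopx at 6.8 to 11.42 FPKM, below the glial genes Gfap and Aqp4 and the neuronal genes Tubb3, Dclk1 and Stmn1.

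Other genes of the same lineage were examined as lists. Of 20 stem cell and radial glia genes, 18 were tested and edgeR called 0, with 9 positive and 9 negative fold changes and a median of 0.01 (0.015) on the log2 scale. At an unadjusted p under 0.05 the list had 1 higher gene, Lfng, and 2 lower ones, Pax6 and Lpar1. The intermediate filament Nes, which marks neural stem cells, had control and lidocaine means of 17.7 ± 3.35 and 13.8 (13.75) ± 1.64 CPM (SD, n = 3 each) and a log2 fold change of -0.36 ± 0.17. Pax6, a stem cell transcription factor, had 76, 98 and 91 counts in control 1 to 3 and 80, 56 and 63 in lidocaine 1 to 3, and its CPM groups did not overlap. Its log2 fold change was -0.56 ± 0.20 (edgeR, unadjusted p = 0.0215, Benjamini-Hochberg-adjusted p = 0.995). The Notch target Hes5 had 0.27 ± 0.18, the receptor Notch1 -0.02 ± 0.08, the fatty acid binding protein Fabp7 0.04 ± 0.15 and the glial filament Gfap 0.09 ± 0.07 on the same scale.

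Genes of dividing cells were likewise not called. Of 20 cell division and intermediate progenitor genes 18 were tested, 0 were called, 11 fold changes were positive and 7 negative, the median was 0.05 on the log2 scale, and 1 gene, Cenpf, was higher at an unadjusted p under 0.05. Mki67, the proliferation antigen, had 78, 61 and 41 counts in control 1 to 3 and 102, 63 and 59 in lidocaine 1 to 3, a log2 fold change of 0.16 ± 0.30. The topoisomerase Top2a had 0.01 ± 0.31, the cyclin Ccnd2, which granule cell progenitors need in order to divide, 0.08 ± 0.08, and the proneural factor Neurog2 0.17 ± 0.33. The low counts of Mki67, Top2a and Neurog2 leave wide intervals: that of Mki67 ran from -0.52 to 0.85.

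Of 21 immature neuron genes outside the named set, 20 were tested, with 12 positive and 8 negative fold changes, 0 called, 0 at an unadjusted p under 0.05 and a median of 0.02. Calb2, calretinin, which immature granule neurons express for a short time, had a log2 fold change of 0.02 ± 0.18 at control and lidocaine means of 17.01 ± 2.36 and 17.2 (17.25) ± 3.50 CPM (SD, n = 3 each). The neuronal tubulin Tubb3 had 0.14 ± 0.07, the microtubule-destabilising Stmn1 -0.14 ± 0.12, the doublecortin relative Dclk1 -0.05 ± 0.05 and the cortical factor Tbr1 -0.06 ± 0.15. Tubb3 averaged 226.7 FPKM over the 6 libraries, Dclk1 195.6 and Stmn1 106.9, far above the 2.23 FPKM of Dcx. The part of mature neurons in the values of this list was not tested, so its median cannot be read as that of immature neurons alone.

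Of 22 niche signals and their receptors 19 were tested, 0 were called, and 7 fold changes were positive and 12 negative, with a median of -0.05. At an unadjusted p under 0.05, 2 were lower, the hedgehog receptor Ptch1 (-0.43 ± 0.15) and the vascular growth factor Vegfa (-0.20 ± 0.08). The neurotrophin Bdnf, which promotes survival of newborn neurons, had -0.17 ± 0.10, the growth factor Igf1 -0.22 ± 0.25 and the BMP antagonist Nog -0.08 ± 0.23. Groups were apart in 2 of the 19, Bdnf and Vegfa, both lower with lidocaine, beside 9.98% of all tested genes. Bmp4 stayed below the filter at 0 to 49.49 counts. All 10 netrin receptors and Draxin partners were tested and 0 were called, with 5 fold changes of each sign and, at an unadjusted p under 0.05, 1 higher and 1 lower. Dcc, the receptor that Draxin binds, was above the controls in all 3 lidocaine libraries, with means of 60.4 ± 1.98 and 67.6 ± 2.67 CPM (SD, n = 3 each) that differed by 0.16 ± 0.07 on the log2 scale (edgeR, unadjusted p = 0.04, Benjamini-Hochberg-adjusted p = 0.995). Dscam, another netrin receptor, was below the controls in all 3, at -0.23 ± 0.08 (edgeR, unadjusted p = 0.0169, Benjamini-Hochberg-adjusted p = 0.995). The ligand Ntn1 had -0.01 ± 0.19 (0.195).

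**Figure D4:**
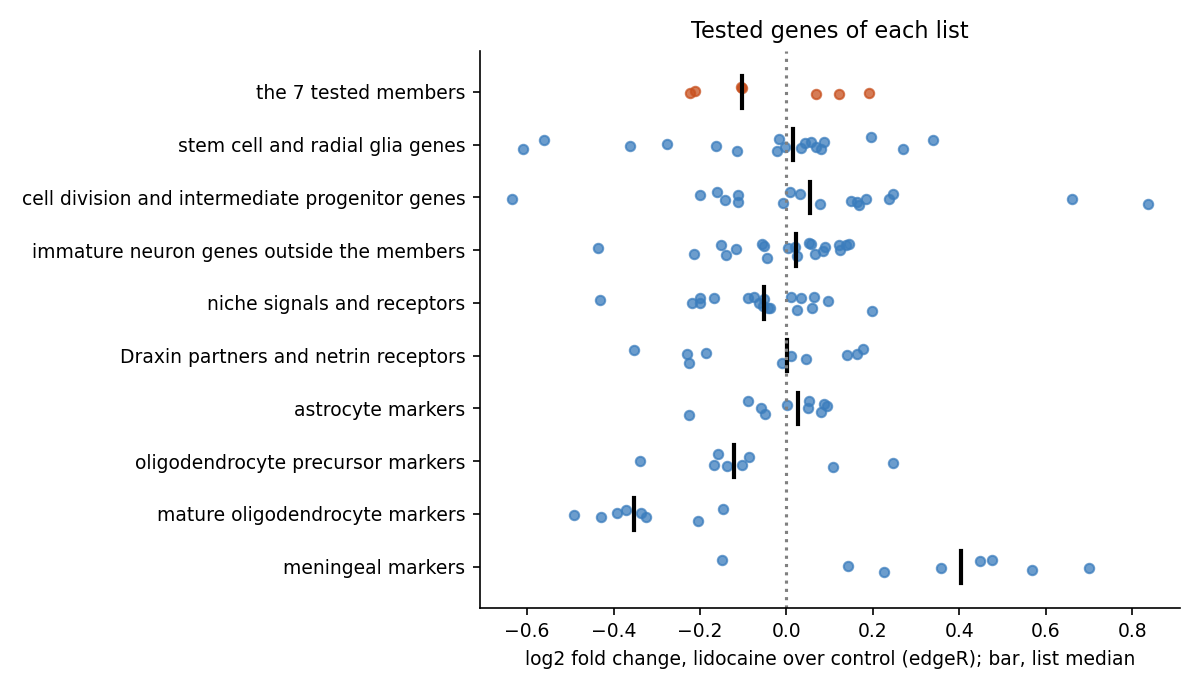
Log2 fold change of lidocaine over control from edgeR for each tested gene (points) of the 7 tested members and of 9 lists, with the median of each list as a bar. Medians of the 5 neurogenesis lists lie between -0.05 and 0.05, while the mature oligodendrocyte median is -0.35 and the meningeal median 0.40; no point was called.

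Markers of other cells that could be in the dissected tissue were compared beside the set. Dcx and Sox11 also mark neuroblasts of the ventricular zone, whose 7 markers summed to 6.22, 16.9 and 13.6 CPM in control 1 to 3 and 17.1, 17.6 and 8.04 CPM in lidocaine 1 to 3. These sums turn on Dlx1, which has fractional counts and a listed 0 in control 1. Without it they were 6.22, 6.25 and 8.07 CPM in control 1 to 3 and 6.29, 7.95 and 5.03 CPM in lidocaine 1 to 3. None was at 0 in every library, and Dlx2, a defining member, was counted 6 to 13 times. Interneurons also use Dlx1, and their part in the sums of these markers was not tested. Oligodendrocyte precursor markers, 8 of 8 tested, had a median log2 fold change of -0.12 with 2 positive and 6 negative, and summed to 620.2 to 647.5 CPM in controls and 612.9 to 635.8 CPM with lidocaine. Pdgfra, the receptor that defines these precursors, had 0.11 ± 0.05. Groups were apart in 4 of the 8, beside 9.98% of all tested genes, with Pdgfra and Cspg4 higher and Olig1 and Olig2 lower with lidocaine. At an unadjusted p under 0.05, 1 was higher, Cspg4, and 1 lower, Olig1, and edgeR called 0. The part of mature oligodendrocytes in these 8 markers was not tested. The mature oligodendrocyte markers had negative fold changes in 8 of 8, with 4 at an unadjusted p under 0.05 and 0 called by edgeR. Over all tested genes, 50.07% of fold changes were negative and 4.36% of genes had an unadjusted p under 0.05. The 8 markers had a median of -0.35 and sums of 11205.3 to 12972.5 CPM in controls and 8075.6 to 11099.8 CPM with lidocaine. Mbp, myelin basic protein, had -0.39 ± 0.09 and an adjusted p of 0.995 in edgeR, while DESeq2 called it lower. Meningeal markers, of which 8 of 9 were tested, had a median of 0.40 with 7 positive, 2 at an unadjusted p under 0.05, 0 called by edgeR, and sums of 93.7 to 103.9 CPM in controls and 110.3 to 146.8 CPM with lidocaine. Of these Igf2, a growth factor of the meninges, was apart between groups at 0.57 ± 0.11 (Benjamini-Hochberg-adjusted p = 0.619 in edgeR), and DESeq2 called it higher (adjusted p = 0.035). Ependymal and choroid plexus markers summed to 7.88 to 17.5 CPM and 7.70 to 12.3 CPM, with the choroid transporter Ttr at 23 to 122 counts. Microglia markers summed to 273.7 to 332.7 CPM in controls and 313.0 to 321.9 CPM with lidocaine. Of these, 6 of 6 were positive, with a median of 0.07, 1 higher at an unadjusted p under 0.05 and 0 called. Endothelial markers summed to 233.8 to 288.7 CPM and 222.6 to 244.4 CPM, with a median of -0.12. The only tested Cajal-Retzius marker, Reln, is also made by interneurons, and the defining Lhx1 and Lhx5 were at or near 0. The part of these cells in the values of the set was not tested.

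Genes whose level followed that of Dcx most closely over the 6 libraries were looked for among 10422 tested genes with a mean of at least 5 CPM. By Pearson's r of log2 CPM, the closest 5 were the protocadherin Pcdhgb4 (r = 0.99), whose cluster shares exons between genes so that its counts are uncertain, the ubiquitin ligase Znrf1 (0.97), the receptor trafficking gene Cnih4 (0.97), Sra1 (0.97) and the zinc finger gene Zfp637 (0.97). Pcdhgb4 stood at 20.6, 17.5 and 23.2 CPM in control 1 to 3 and at 22.6, 25.2 and 18.5 CPM in lidocaine 1 to 3. All 5 share the 6 libraries with Dcx and were chosen for this likeness out of 10422 genes, so no p is given, and none is in the neurogenesis lists.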

How the data were processed

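Per the labels' protocols, total RNA (RNeasy) went into SMARTer mRNA libraries. The build mm10 comes from the submitters' processing notes. Aligner, counting program and gene models were not given in the sources used here. A single deposited table holds estimated counts, not normalised, and FPKM values scaled by the authors, per the file headers. In it, 30.4% of rows have a fractional count. Columns were matched to sample titles by group initial and number.

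Estimated counts were rounded, filtered with filterByExpr (13408 genes left) and scaled by TMM (factors 0.991 to 1.009). Groups were compared with edgeR 4.0.16 in R 4.3.3 (quasi-likelihood F-test, robust, two-sided), with Benjamini-Hochberg adjustment over all tested genes; a gene was called where this adjusted p was under 0.05. Intervals (95%) and standard errors were computed from the F statistic. Alternatives used limma 3.58.1 (voom on counts, or log2(FPKM + 1) and log2(FPKM + 0.1), scales that understate changes of low genes) and DESeq2 1.42.0. The test was tried on simulated data. Counts of any 2 libraries differed with a chi-square of 9.89 to 17.2 per degree of freedom, so no pair agreed within sampling noise.

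The members and lists were chosen with earlier results of these data known. Named genes are all members, a fixed choice of 28 list genes, any called list gene, and 5 genes most like Dcx. Sox12, Spink8, Wfs1, Fibcd1, C1ql2, Calb1, Neurod6, Reln, Lhx1, Lhx5, Lfng, Lpar1, Cenpf, Ptch1, Vegfa, Dscam, Igf2 and Dlx1 were named after their values were seen. So were Fgf2, Dkk1, Cspg4, Olig1, Olig2 and S100b. Of the 28, 1 gene is not reported here.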

Additional observations from a re-analysis of the deposited data

How the results depend on the processing

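Under all 14 alternatives, 0 of the progenitor and immature neuron genes were called and 0 had an unadjusted p under 0.05. The number of genes called over the whole table, 2 in the main test, was 22 with DESeq2, 5 with limma on log2(FPKM + 0.1), and between 0 and 6 with 1 of the 6 libraries left out. Among the list genes, DESeq2 called the oligodendrocyte marker Mbp and the meningeal marker Igf2. Dcx, Sox11, Sox2 and Draxin kept the sign of their log2 fold change throughout. The others turned in sign only when 1 library was left out: Neurod1 ranged from -0.224 to 0.045, Igfbpl1 from -0.054 to 0.301 and Hopx from -0.149 to 0.251. Of 26 named genes outside the set, 15 kept their sign and 11 turned when 1 library was left out, counting values that differ from 0 at 3 decimals (Ccnd2 was at 0.000 without lidocaine 2). Ranges were -0.037 to 0.164 for Fabp7, -0.087 to 0.044 for Notch1, -0.087 to 0.421 for Mki67, -0.191 to 0.309 for Top2a, -0.012 to 0.392 for Neurog2, -0.107 to 0.175 for Calb2, -0.212 to 0.048 for Tbr1, -0.296 to 0.094 for Nog, -0.164 to 0.127 for Ntn1, -0.843 to 0.303 for Ttr and -0.003 to 0.159 for Aqp4. The cause was not tested. With the replicate number as a block, 0 genes were called over the whole table, and Dcx had 0.18. The deviations of same-numbered libraries from their group means correlated at 0.045, 0.027 and -0.001. Libraries of different numbers correlated at -0.043 to 0.017, and not every library correlated best with its own number. With 3 libraries per group, these values cannot decide whether same-numbered libraries were paired, and the labels give only a number. Counts of 0 to 6 for Eomes and 24 to 43 for Igfbpl1 and Draxin limit what these libraries can show for them.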

Other observations

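Several regulators of neurogenesis outside the set had counts at or near 0, or unsteady counts, in these libraries. The growth factor Fgf2 and the Wnt inhibitor Dkk1 were listed at 0 in all 6 libraries. Whether these listed values of 0 come from the gene models used was not tested. Dlx1, a factor of interneurons and ventricular neuroblasts, had 0, 169.2 and 78.01 counts in control 1 to 3 and 183.17, 156.16 and 48.35 in lidocaine 1 to 3. Bmp4 had 15.1, 7.41 and 0 in control 1 to 3 and 49.49, 0 and 0 in lidocaine 1 to 3. Dlx1 and Bmp4 have fractional counts and a listed 0 in at least 1 library, so no fold is given. Cenpf, a kinetochore gene of dividing cells, had 13, 10 and 11 counts in control 1 to 3 and 29, 23 and 16 in lidocaine 1 to 3, a log2 fold change of 0.84 ± 0.35 that edgeR did not call (unadjusted p = 0.0466, Benjamini-Hochberg-adjusted p = 0.995). Lfng, which modifies Notch receptors, was above the controls in all 3 lidocaine libraries (0.34 ± 0.12). The lysophosphatidic acid receptor Lpar1, found in stem cells and in oligodendrocytes, was below the controls in all 3 (-0.61 ± 0.21). Lpar1 also has fractional counts, none of them 0. The adjusted p-values of Lfng and Lpar1 were 0.995 in edgeR with Benjamini-Hochberg adjustment. The genes of this paragraph other than Bmp4 were chosen after their values were seen.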
